A study of Mus musculus with 6 samples.

Results

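The collagen genes of mouse were examined in embryonic fibroblasts with and without functional Pax7. Members were chosen by name: a gene belonged when its symbol was Col, a number, the letter a and a number, and when a probe set (the group of array probes read together) named it alone. This gave 44 of the 22180 genes measured, 11 fibrillar, 6 collagen VI, 9 FACIT, 8 basement membrane and 10 other members. The arrays held total RNA of cells grown in serum-containing medium and collected at confluence, from 3 Pax7+/+ (wild type) and 3 Pax7-/- (knockout) samples, labelled biological replicates 1 to 3 in each genotype, all on the strain background F1 (C57Bl6N x 129Sv). What embryos or cultures the numbers stand for, how old the embryos were and what the Pax7 allele is were not stated in the labels, so the p-values below reflect only how these samples scatter.

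Collagens are secreted proteins of 3 chains wound into a triple helix. Fibrillar collagens (types I, III, V and others) form the load-bearing fibres of connective tissue, and fibroblasts are their main producers. Collagen VI assembles from an alpha 1, an alpha 2 and an alpha 3 chain into beaded filaments around cells. FACIT collagens sit on the surface of fibrils, and collagen IV forms the sheet-like network of basement membranes. Pax7 is a paired-box transcription factor best known from muscle stem cells.

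Values are log2 signals as the authors deposited them, and differences are knockout minus wild type. Signals of different probe sets are not compared as levels, because probes differ in how brightly they report a transcript. Where 3 values are given for a genotype, they stand in the order of replicates 1, 2 and 3. Receptor genes of smell and pheromone sensing (Olfr and Vmn, 1394 genes) gave a background level for each array, their 95th percentile (4.63 to 5.44). By this measure 39 collagen genes were above background in at least 1 genotype, 32 of them on all 6 arrays. Genotypes were compared with limma, with the replicate number as a block, and p-values were adjusted over all 22180 genes.

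Facts of the whole series bear on every value. Both replicate 3 arrays stood apart: over all genes their correlation was 0.992, that of any 2 of the remaining 4 arrays was 0.988 to 0.990, and that of an array from each side was 0.814 to 0.844. In the blocked fit 15 genes were called lower and 2 higher (0.0676% and 0.00902% of all genes), and without the block none was (0% in either direction). The sample label reads ESCs where the titles say fibroblasts. All 8 fibroblast markers were above background in wild type and 7 in the knockout (all but Lum), while 1 of 6 pluripotency markers was (Pou5f1). Pax7 itself read 6.14, 5.65 and 4.88 on the wild type arrays and 6.17, 5.95 and 5.05 on the knockout arrays, with no difference past the threshold (limma, adjusted p = 0.804). The labels do not place its probe set relative to the altered part of the gene, so this does not check the genotype.

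The 3 chains of classical collagen VI had the largest differences of the family and were lower in the knockout in every pair. Col6a3 was lower by 1.54-fold, Col6a2 by 1.42-fold and Col6a1 by 1.35-fold. Col3a1 was also lower in every pair, Col4a1 was higher in every pair, and both chains of collagen I and the main chain of collagen V had fitted differences between -0.11 and -0.02. No collagen passed the adjusted threshold in this fit: 0 of 44 were called lower and 0 higher, with Col6a3 nearest (limma, adjusted p = 0.0578).

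Over the family as a whole the differences were small and went both ways. The median difference of the 39 members above background was -0.01, and that of all 12360 genes above background was -0.00. Of the 39, 8 were lower in every pair (20.5%), where 15.3% of genes above background were, and 5 were higher in every pair (12.8%), against 14.8%. In 26 the pairs disagreed in sign. At an unadjusted p under 0.05 in the blocked fit, 5 of the 44 were lower (11.4%) and 2 higher (4.55%). Of all genes, 3.45% and 3.28% were. The 2 higher members were Col4a1 and Col28a1, and Col28a1 was above background on 0 arrays. Without the block 0 of the 44 reached it. In 32 of the 39 members the difference was smaller than 0.2. The 7 others were Col6a3, Col6a2, Col6a1, Col3a1 and Col10a1 on the lower side and Col4a1 and Col9a3 on the higher side.

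**Figure D1:**
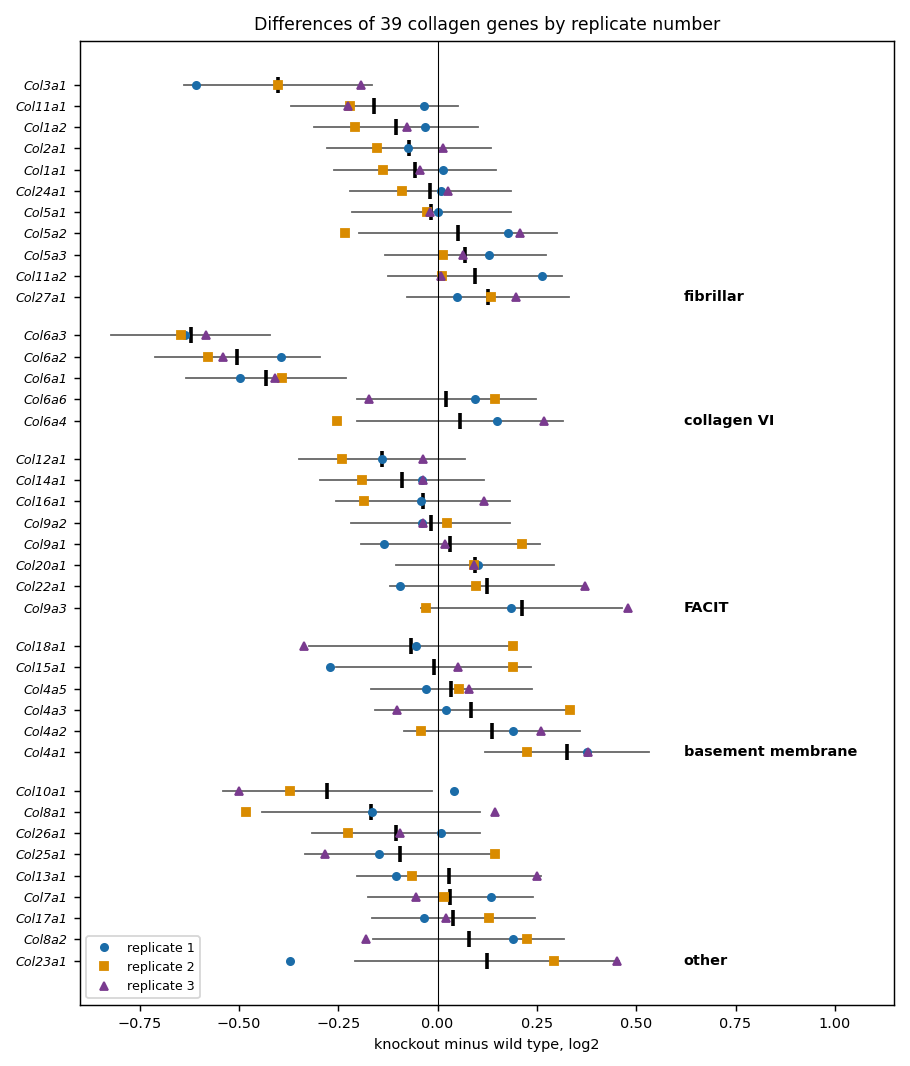
Knockout minus wild type on the log2 scale (horizontal axis) for the 39 collagen genes above background, grouped by type. Coloured points are the 3 same-numbered pairs, black ticks the fitted differences and grey lines their 95% limma intervals; Col6a1, Col6a2 and Col6a3 lie to the left with their 3 pairs close together, and most other members straddle 0.

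Col6a3 encodes the long alpha 3 chain of collagen VI, which carries most of its von Willebrand factor A domains. The log2 signal was 8.16, 8.40 and 9.34 on the wild type arrays and 7.52, 7.76 and 8.76 on the knockout arrays. Every knockout array was below the wild type array of its number, by 0.63, 0.65 and 0.58, while the genotypes overlapped because replicate 3 was the brightest in each. The fitted difference was -0.62 (SE 0.09, 95% interval -0.82 to -0.42, limma adjusted p = 0.0578; SE 0.46 and adjusted p = 1.00 without the block). It passed the threshold in 4 of the other settings (limma). These were without replicate 1 of both genotypes (adjusted p = 0.0360), with arrays centred on their medians (0.0486), with dim genes left out (0.0281) and with an intensity-dependent, robust prior for the spread (0.0188). It did not pass with replicates 1 and 2 as 1 batch (limma adjusted p = 0.0949), quantile normalization (0.0865) or averaged probe sets (0.0539). Nor did it pass without replicate 2 (0.237), without replicate 3 (0.160) or in any fit without the block.

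Col6a2, which encodes the alpha 2 chain, read 9.03, 9.10 and 9.77 on the wild type arrays and 8.64, 8.52 and 9.23 on the knockout arrays. The pairs differed by -0.39, -0.58 and -0.54, so the knockout was lower each time. The fitted difference was -0.50 (SE 0.09, 95% interval -0.71 to -0.30, limma adjusted p = 0.153).

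Col6a1, the gene of the alpha 1 chain, read 9.89, 9.90 and 10.33 on the wild type arrays and 9.39, 9.51 and 9.92 on the knockout arrays. The pairs differed by -0.50, -0.39 and -0.41, and the fitted difference was -0.43 (SE 0.09, 95% interval -0.63 to -0.23, limma adjusted p = 0.214). A second probe set of Col6a1 was lower in every pair as well, by 0.65, 0.34 and 0.09, with the smallest difference in replicate 3. A further probe set, which names Col6a1 along with other genes, gave 0.28, -0.07 and -0.17 and was not used. With the robust prior Col6a2 and Col6a1 passed together with Col6a3 (limma, adjusted p = 0.0465 for both); without the block none of the 3 did.

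The other collagen VI genes encode alternative chains that can take the place of alpha 3. Col6a4 read 5.48, 5.96 and 4.54 on the wild type arrays and 5.64, 5.70 and 4.81 on the knockout arrays, with wild type replicate 3 below background (difference 0.06, SE 0.12). Col6a6 read 6.36, 6.30 and 5.04 against 6.45, 6.45 and 4.86 (difference 0.02, SE 0.10). Col6a5 was not above background in either genotype. The lower values were thus measured in the 3 chains of the classical trimer. The 2 alternative chains above background had pairs of both signs. They lay nearer the background level (4.63 to 5.44) than the classical chains did, which limits how large a fall they could show. No test compared the chains with each other. Fibroblast markers were mostly on the lower side too. Of the 8, 7 had a negative difference, with a median of -0.20. In every pair, 15.3% of all genes above background were lower, and 5 of the 8 markers were. Among these were Lum, a small fibril-binding proteoglycan, and Prrx1, a homeobox factor of limb and skin mesenchyme. Prrx1 was at -0.34, -0.59 and -0.34 in the pairs and Lum at -0.70, -0.84 and -1.95. The signal of Lum was above background on 2 of the 6 arrays, replicate 3 of each genotype. Its differences in replicates 1 and 2 therefore lie below background and give no size. None of the 8 passed the threshold (limma, adjusted p = 0.127 for Lum and 0.295 for Prrx1), and the mean log2 signal of the list was 8.28 to 9.28 on wild type and 8.04 to 8.83 on knockout arrays. Cartilage and bone markers leaned lower as well, with 6 of 7 and 4 of 5 fitted differences negative (medians -0.03 and -0.13). Of these lists, 3 and 1 members were above background in each genotype. The 4 measured Schwann and neural markers had positive fitted differences. Their mean signal was 6.12 to 6.16 on wild type and 6.27 to 6.46 on knockout arrays. Of these, Nes alone, an intermediate filament gene of progenitor cells, was higher in every pair, by 0.44, 0.29 and 0.62. Sox10, Tubb3 and Elavl3 had pairs of both signs. The 6 muscle markers had positive fitted differences as well. Myog, Des and Actn2 were higher in every pair, as were 13.8% of all genes. Myod1, Myog and Des were above background in each genotype, and Actn2 in neither. The part of these lists in the collagen VI differences was not tested. In RNA from whole cultures, fewer cells of a type and less RNA per cell cannot be told apart.

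**Figure D2:**
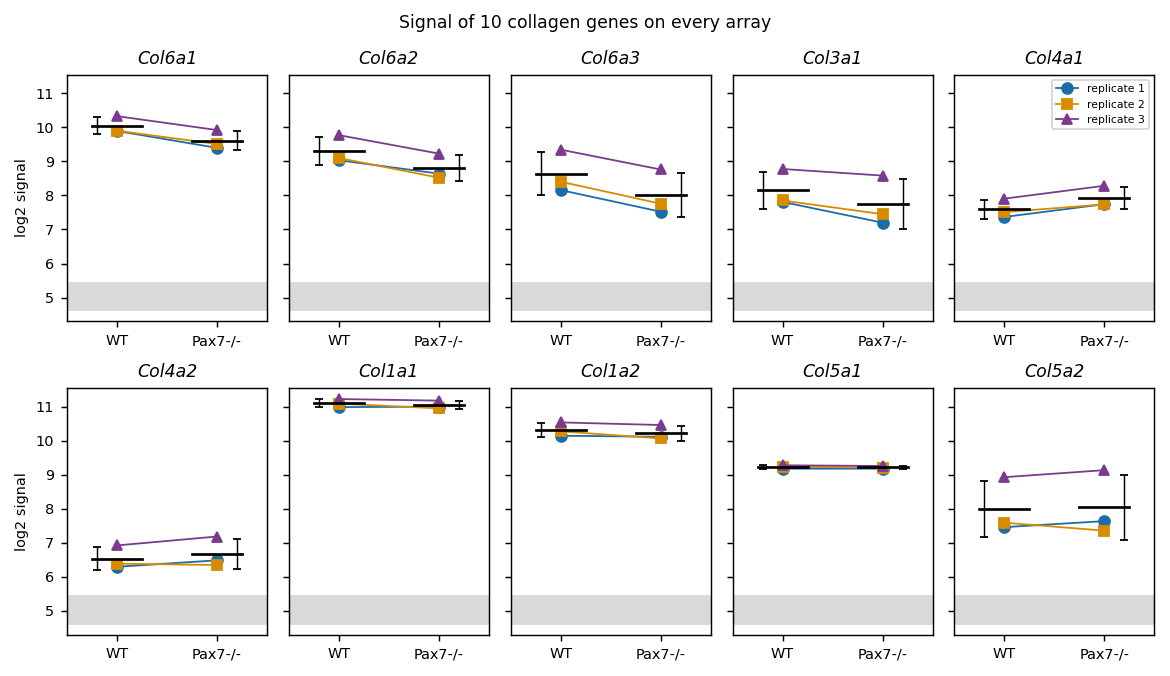
Log2 signal of 10 collagen genes in wild type (WT) and Pax7-/- arrays, with same-numbered replicates joined, horizontal bars at the mean of 3 arrays and error bars of 1 SD. The grey band is the range of the background level (4.63 to 5.44); the 3 joined lines of Col6a1, Col6a2, Col6a3 and Col3a1 slope down, those of Col4a1 slope up, and those of Col1a1 and Col5a1 are nearly flat.

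Col6a1 and Col6a2 are neighbours on mouse chromosome 10, with no protein-coding gene between them in RefSeq's GRCm38.p6, whereas Col6a3 lies on chromosome 1. The bases upstream of the 3 genes are shown because each was lower in every pair. Those of Col3a1, lower in every pair as well, and of Col1a2 are shown for comparison. Col1a2 differed by -0.11 on the probe set kept and by -0.21 with its probe sets averaged. All the bases shown are RefSeq's, from GRCm38.p6, each on the gene's own strand and ending at the base before the gene's first annotated position. RefSeq's table held windows for 35 of the 44 collagen genes. Capitals mark the CCAAT box (CCAAT), the TATA box (TATAAA) and the GC box (GGGCGG), each searched on both strands; no marked motifs overlap.
Col6a1 (chr10:76726045-76726294, minus strand): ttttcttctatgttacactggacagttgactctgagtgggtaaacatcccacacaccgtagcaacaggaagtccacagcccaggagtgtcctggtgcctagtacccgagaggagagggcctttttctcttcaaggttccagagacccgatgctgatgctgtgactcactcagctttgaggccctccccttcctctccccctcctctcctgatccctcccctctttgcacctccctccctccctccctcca
Col6a2 (chr10:76623631-76623880, minus strand): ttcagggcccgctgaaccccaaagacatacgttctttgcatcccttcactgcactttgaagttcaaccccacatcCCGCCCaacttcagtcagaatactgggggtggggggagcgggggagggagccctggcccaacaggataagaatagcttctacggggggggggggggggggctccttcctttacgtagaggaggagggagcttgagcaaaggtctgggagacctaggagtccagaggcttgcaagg
Col6a3 (chr1:90844002-90844221, minus strand): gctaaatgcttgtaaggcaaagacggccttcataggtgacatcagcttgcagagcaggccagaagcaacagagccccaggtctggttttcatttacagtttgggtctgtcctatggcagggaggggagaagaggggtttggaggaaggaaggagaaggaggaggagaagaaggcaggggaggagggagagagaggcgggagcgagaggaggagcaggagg
Col3a1 (chr1:45311288-45311537, plus strand): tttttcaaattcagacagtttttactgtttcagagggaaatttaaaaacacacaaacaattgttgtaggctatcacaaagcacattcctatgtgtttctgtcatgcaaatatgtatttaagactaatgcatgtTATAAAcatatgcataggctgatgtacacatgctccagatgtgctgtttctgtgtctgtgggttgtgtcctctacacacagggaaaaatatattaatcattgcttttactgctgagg
Col1a2 (chr6:4505368-4505617, plus strand): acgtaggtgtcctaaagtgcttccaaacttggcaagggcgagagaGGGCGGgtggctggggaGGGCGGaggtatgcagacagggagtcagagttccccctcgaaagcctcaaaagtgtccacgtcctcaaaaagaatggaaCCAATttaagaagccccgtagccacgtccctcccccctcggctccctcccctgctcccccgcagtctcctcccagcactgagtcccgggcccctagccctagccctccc

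The stretches above Col6a1 and Col6a3 hold none of the 3 motifs, and that above Col6a2 holds 1 GC box. A second RefSeq start of Col6a2 lies inside the annotated gene, and the 250 bases before it, not shown, hold 3 GC boxes. The stretch above Col6a3 is shorter, at 220 bases, because its RefSeq window is read from a start inside the gene; the whole window of 250 bases holds none of the 3 motifs either. Col3a1 has 1 TATA box, and Col1a2 has 1 CCAAT box and 2 GC boxes. Over the 250 bases before each annotated start, 57.9% of the 38 collagen windows hold a GC box, 34.2% a CCAAT box and 13.2% a TATA box. Among all 32851 windows of RefSeq's table these shares are 32.7%, 33.8% and 12.4%. The palindrome TAATNNATTA, a site that pairs of paired-class homeodomains can bind, is in 0 of the 38 collagen windows and in 0.384% of all windows. These are matches of letters only.

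Among fibrillar collagens, 3 of 11 were lower in every pair, 3 were higher and 5 were mixed, with a median difference of -0.02. Col3a1, the single chain of collagen III, the pliant fibril of skin and vessels, read 7.81, 7.85 and 8.77 on the wild type arrays and 7.20, 7.45 and 8.58 on the knockout arrays. It was lower by 0.61, 0.40 and 0.19 in the pairs, least in replicate 3. The fitted difference was -0.40 (SE 0.10, 1.32-fold lower, 95% interval -0.64 to -0.17, limma adjusted p = 0.432).

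Collagen I, the main protein of tendon, skin and bone, consists of 2 alpha 1 chains and 1 alpha 2 chain. Col1a1 read 10.98, 11.08 and 11.22 on the wild type arrays and 11.00, 10.95 and 11.17 on the knockout arrays, a difference of -0.06 (SE 0.09, 95% interval -0.26 to 0.15). Col1a2 read 10.14, 10.27 and 10.53 against 10.11, 10.06 and 10.46, a difference of -0.11 (SE 0.09, 95% interval -0.31 to 0.10). The genotypes overlapped for both chains. In the blocked fit neither interval reaches the difference of Col6a3 (-0.62), but no test compared collagen I genes with Col6a3. A second probe set of Col1a2 differed by -0.76, -0.10 and -0.09 in the pairs, so the probe sets disagreed in replicate 1, and the mean of both gave -0.21 (limma, adjusted p = 0.760).

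Collagen V, which starts and narrows collagen I fibrils, had Col5a1 at 9.17, 9.23 and 9.27 on the wild type arrays and at 9.17, 9.21 and 9.25 on the knockout arrays, a difference of -0.02 (SE 0.09, 95% interval -0.22 to 0.18). Its second probe set differed by -0.38, -0.38 and 0.05, and the mean of both gave -0.13 (limma, adjusted p = 0.859). Col5a2, the neighbour of Col3a1 on chromosome 1, read 7.46, 7.59 and 8.93 against 7.64, 7.36 and 9.13, with a difference of 0.05 (SE 0.11, 95% interval -0.20 to 0.30) and pairs of both signs. Col5a3, a chain of a minor collagen V form, read 7.10, 7.03 and 6.58 on the wild type arrays and 7.23, 7.04 and 6.64 on the knockout arrays, higher in every pair but by at most 0.13 (difference 0.07, SE 0.09). The adjacent Col3a1 and Col5a2 therefore had differences of opposite sign, which were not compared by a test.

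The remaining fibrillar genes include those of cartilage. Col11a1, which with other chains forms the thin fibrils of cartilage, read 5.94, 6.03 and 7.26 on the wild type arrays and 5.91, 5.81 and 7.03 on the knockout arrays, lower in every pair (difference -0.16, SE 0.09). Col27a1, expressed in cartilage as well, read 7.07, 7.13 and 5.85 against 7.12, 7.26 and 6.05, higher in every pair (difference 0.13, SE 0.09). Col2a1, the main cartilage collagen, was at -0.07, Col11a2 at 0.09 and Col24a1 at -0.02. None had an adjusted p under 0.8 in limma's blocked fit. Of 7 cartilage markers, Sox9, Acan and Matn3 were above background in each genotype and Matn1, Cnmd, Hapln1 and Snorc in neither. The mean log2 signal of the list was 4.97 to 5.22 on wild type and 4.96 to 5.16 on knockout arrays, and 0 of its members passed the test; the part of such cells in these signals was not tested.

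In the basement membrane group the Col4a1 gene stood out by size. It encodes the alpha 1 chain of collagen IV, which joins with alpha 2 in most basement membranes. The log2 signal was 7.37, 7.51 and 7.90 on the wild type arrays and 7.74, 7.74 and 8.28 on the knockout arrays. Each knockout array was above its wild type partner, by 0.38, 0.23 and 0.38, though replicate 3 of the wild type overlapped the knockout range. The fitted difference was 0.33 (SE 0.09, 1.25-fold higher, 95% interval 0.12 to 0.53, limma adjusted p = 0.484).

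Col4a2, the alpha 2 chain, read 6.29, 6.39 and 6.92 on the wild type arrays and 6.48, 6.35 and 7.18 on the knockout arrays, higher in replicates 1 and 3 only (difference 0.14, SE 0.10, 95% interval -0.09 to 0.36). The genes of these partner chains lie head to head, and their RefSeq promoter windows share 78 bases. Their intervals overlapped. Col4a5 was at 0.03 and Col4a3 at 0.08, with pairs of both signs, and Col4a4 and Col4a6 were not above background. The multiplexin genes Col15a1 and Col18a1, whose products link basement membranes to the tissue beneath, were at -0.01 and -0.07.

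FACIT genes had a median difference of 0.01 over the 8 above background. Col12a1, whose product decorates collagen I fibrils under tension, read 10.61, 10.62 and 10.87 on the wild type arrays and 10.47, 10.37 and 10.83 on the knockout arrays, lower in every pair by 0.14, 0.24 and 0.04 (difference -0.14, SE 0.09, limma adjusted p = 0.836). Its relative Col14a1 was the single member without overlap between genotypes, at 5.40, 5.50 and 5.41 against 5.36, 5.32 and 5.37. That makes 1 of 44 lower and 0 higher, where 0.744% and 0.667% of all genes had no overlap in these directions. That difference was small (-0.09), and the signal was above background on 3 of the 6 arrays. Col9a3, a chain of collagen IX of cartilage fibrils, read 6.65, 6.49 and 4.31 against 6.84, 6.46 and 4.79. Its difference of 0.21 (SE 0.11) came mostly from replicate 3 (0.18, -0.03 and 0.48 in the pairs), where the wild type signal was below background. Col9a1, Col9a2, Col16a1, Col20a1 and Col22a1 lay between -0.04 and 0.12, and Col19a1 was not above background.

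The other members ranged from -0.28 to 0.12 over the 9 above background, and in none of the 9 did the pairs share a sign. Col10a1, the collagen of hypertrophic cartilage, read 6.16, 6.58 and 8.14 on the wild type arrays and 6.21, 6.21 and 7.64 on the knockout arrays (pairs 0.04, -0.37 and -0.50; difference -0.28, SE 0.12, limma adjusted p = 0.720). Col8a1, a short-chain collagen of vessel walls and cornea, read 8.39, 8.67 and 9.35 against 8.23, 8.19 and 9.49 (difference -0.17, SE 0.12). The anchoring fibril gene Col7a1 was at 0.03. Among the transmembrane collagens, Col13a1 was at 0.03, Col17a1 at 0.04, Col23a1 at 0.12 and Col25a1 at -0.10, and Col26a1 was at -0.10. Col23a1 had the widest pairs of these, at -0.37, 0.29 and 0.45. Col8a2 was above background in the knockout alone, and no fold is given for it. Col28a1 was at or below background on all 6 arrays, so its difference has no size here.

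In 36 of the 39 members above background, replicate 3 differed from the mean of replicates 1 and 2 by more than the genotypes did. This held in each genotype, and Col6a1, Col14a1 and Col15a1 were the others. The share was not taken over all genes, so the count does not set collagens apart. Over all genes above background, the SD of the genotype differences was 0.16. Of the 39 members, 15 were higher on replicate 3 in both genotypes, 21 were lower in both and 3 were mixed. The median was -0.22 in wild type and -0.35 in the knockout, while genes above background as a whole had medians of 0.76 and 0.75. Fibrillar genes split into 6 higher and 5 lower in both genotypes, and collagen VI genes into 3 and 2. On the higher side, Col5a2 differed by 1.40 and 1.64 in wild type and knockout, Col6a3 by 1.06 and 1.12 and Col3a1 by 0.95 and 1.26. Col10a1 was higher by 1.77 and 1.44 and Col11a1 by 1.27 and 1.17. On the lower side, Col23a1 was at -2.77 and -2.28 and Col9a2 at -2.34 and -2.36. Col27a1 was at -1.25 and -1.15, Col6a6 at -1.29 and -1.59 and Col5a3 at -0.49 and -0.50. Col13a1, Col9a3, Col6a4, Col9a1 and Col4a3 were lower as well, but on wild type replicate 3 they were at or below the background level (Col9a1 and Col4a3 on knockout replicate 3 too), so no size is given for them. Col5a1 (0.07 and 0.06) and Col1a1 (0.19 and 0.20) were the steadiest of the collagens I, III and V. The replicate 3 arrays also had a wider spread over all genes (interquartile range 3.02 and 2.98, against 1.61 to 1.69 on the other arrays) and a lower background level (4.65 and 4.63, against 5.33 to 5.44). The labels do not say how replicate 3 differed, and the part of this scale in the shifts was not tested.

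**Figure D3:**
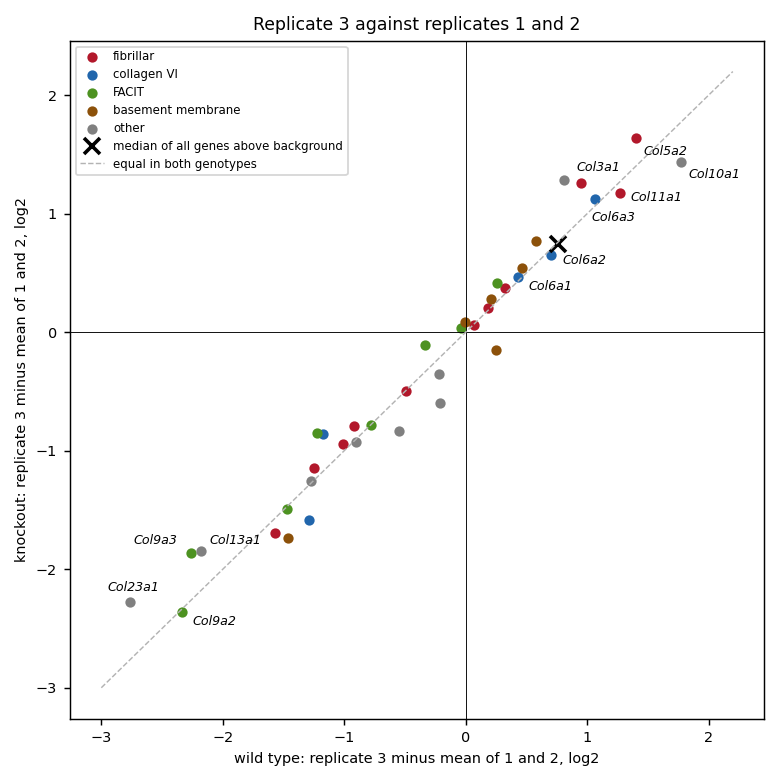
Replicate 3 minus the mean of replicates 1 and 2 on the log2 scale, in wild type (horizontal axis) and knockout (vertical axis), for the 39 collagen genes above background. Points lie along the dashed line of equal values, from -2.77 to 1.77 in wild type, and the cross marks the median of all genes above background (0.76 and 0.75).

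Because of this divide, each difference was also taken without replicate 3. With the block and replicates 1 and 2 alone, Col6a3 was at -0.64, Col6a2 at -0.49, Col6a1 at -0.44, Col3a1 at -0.51 and Col4a1 at 0.30, and no collagen passed. Over the 3 ways of leaving out a replicate number, Col6a3 ranged from -0.64 to -0.61, Col6a2 from -0.56 to -0.47, Col6a1 from -0.45 to -0.40, Col3a1 from -0.51 to -0.30 and Col4a1 from 0.30 to 0.38. If a single array is dropped from the fit with no block, replicate 3 weighs more in one genotype than in the other. Col6a3 was then at -0.995 without knockout replicate 3 and at -0.27 without wild type replicate 3, and Col6a2 at -0.72 and -0.27; Col3a1 was at -0.82 and -0.09 and Col4a1 at 0.15 and 0.48. Col6a1 was at -0.59 and -0.29 in these fits. The sign of these 5 genes was the same in each fit run.

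**Figure D4:**
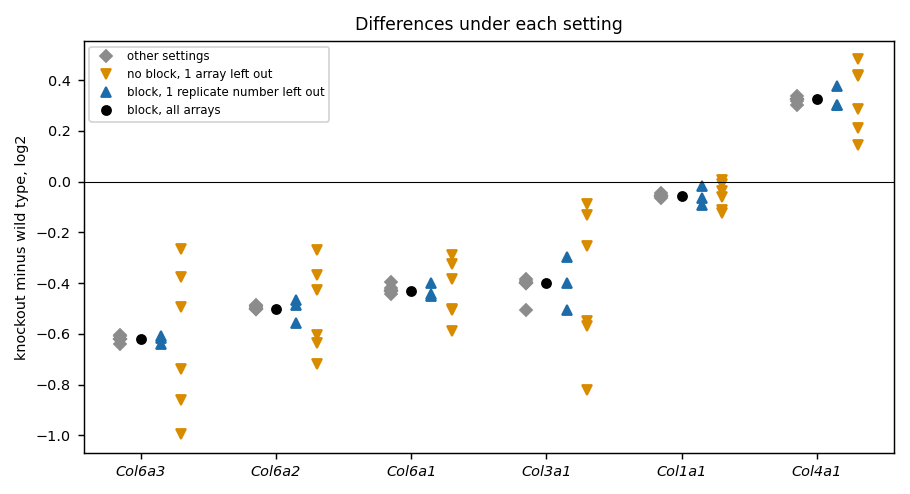
Knockout minus wild type on the log2 scale for 6 collagen genes under each setting: all arrays with the block, 1 replicate number left out, 1 array left out without the block, and the other settings. Values without the block spread from -0.995 to -0.27 for Col6a3, while those with it lie between -0.64 and -0.61.

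Genes that make, arrange, bind and remove collagen were taken from 4 lists. Of the 29 measured genes for synthesis and processing, 0 were called in either direction, and the 26 above background had a median of 0.01, with 19.2% lower and 19.2% higher in every pair (15.3% and 14.8% of all genes above background). Tll1, a protease that trims procollagen, read 7.41, 7.80 and 9.38 on the wild type arrays and 8.08, 8.10 and 9.82 on the knockout arrays (difference 0.47, SE 0.10, limma adjusted p = 0.258). Plod2, the lysyl hydroxylase of collagen telopeptides, was at 0.43 (0.50, 0.64 and 0.15 in the pairs; adjusted p = 0.430).

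Among the 20 genes that organize fibrils, 1 was called lower and 0 higher, where 0.0676% and 0.00902% of all genes were. Of the 19 above background, 13 were lower in every pair (68.4%, against 15.3% of all genes above background) and 2 higher (10.5%, against 14.8%). Their median was -0.27. The gene that fell was Dcn, the small proteoglycan decorin that coats collagen I fibrils and spaces them, at -2.03, -2.16 and -1.59 in the pairs (difference -1.93, SE 0.12, limma adjusted p = 0.000578; 1.00 without the block). Prelp, a leucine-rich protein that ties collagen to basement membranes, was at -0.80 (SE 0.12, adjusted p = 0.0621). This list shares matrix genes already known to be low in these data, so its direction is no independent evidence.

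Of 12 measured collagen receptors and uptake genes, 0 were called, and the median of the 10 above background was 0.11. In every pair 3 of the 10 were lower and 4 higher (30% and 40%, against 15.3% and 14.8% of all genes above background). Itga1, the alpha 1 integrin that binds collagen with beta 1, was at -0.35 (-0.08, -0.39 and -0.58 in the pairs; limma adjusted p = 0.573), and Antxr2, the receptor that takes up collagen VI, was at 0.19 (0.29, 0.12 and 0.17; adjusted p = 0.761). Of 14 measured genes for collagen breakdown and its inhibitors, 0 were called, with a median of 0.07 over the 11 above background. In every pair 2 of the 11 were lower and 3 higher (18.2% and 27.3%, against 15.3% and 14.8%). Timp3, the matrix-bound inhibitor of metalloproteinases, read 10.88, 10.91 and 11.11 on the wild type arrays and 10.43, 10.43 and 10.62 on the knockout arrays, without overlap (difference -0.47, SE 0.09, limma adjusted p = 0.156). Mmp2, a gelatinase, was higher in every pair, by 0.33, 0.24 and 0.24 (difference 0.27, SE 0.09, adjusted p = 0.607).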

How the data were processed

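The values are the log2 signals the authors deposited, 1 per probe set. The submitters' processing notes name Partek and RMA (robust multi-array average) without a version or build, and the log base follows from that name and the size of the values. Of 41345 probe sets, 23521 had 1 gene in the platform annotation, and 23328 of these matched RefSeq's table by Entrez number. For each gene the probe set of highest mean was kept (22180 genes; 47 probe sets for the 44 collagens). No positions of probe sets are given.

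The genotypes were compared in limma 3.58.1 under R 4.3.3 (two-sided, threshold 0.05, Benjamini-Hochberg) with the replicate number as a block, since the comparison was asked for by number; the fit was tested on simulated data. Deviations of equal-numbered arrays from their genotype's mean had correlations of 0.920 (replicate 1), 0.895 (replicate 2) and 0.973 (replicate 3), each over the bound of 0.1. Replicates 1 and 2 of opposite genotype correlated at 0.898 and 0.910, so the values do not decide how replicates 1 and 2 pair. With replicate 3 apart in both genotypes, replicates 1 and 2 deviate together, so the bound could not check their pairing. The pairing follows the label numbers, and the values set apart replicate 3 only. The members and lists were chosen with earlier results of these data known. A gene was above background in a genotype when its mean and at least 1 array exceeded the level.

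All collagens may be named. Values on every array are given for members above background that had one of the 12 largest differences, 1 sign in all pairs with an unadjusted p under 0.05, the chains of collagens I, III, V and VI, or the brightest signal of a group, and for Col14a1, chosen after its values were seen. From each other list the 2 genes with the smallest p are named. List members without a usable probe set were not analysed here. The number of arrays limits the precision. Alternatives were no block, replicates 1 and 2 as 1 batch, each array or number left out, quantile normalization, median centring, averaged probe sets, a filter on dim genes and a robust, trended prior. Endothelial, epithelial, bone, macrophage, muscle and neural marker lists had 0 members past the threshold.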

Additional observations from a re-analysis of the deposited data

How the results depend on the processing

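Without the replicate block 0 collagens and 0 genes of the other lists passed (limma), against 0 and 1 with it, and 0 with the batch block for collagens. With quantile normalization the collagen median was 0.015, 2 list genes passed and Col5a1 was at 0.0083. With the mean of a gene's probe sets Col1a2 was at -0.21, Col5a1 at -0.13 and Col6a1 at -0.40, and 0 collagens passed. With arrays centred on their medians 1 collagen (Col6a3) and 2 list genes passed, and the same numbers with dim genes left out; with the robust, trended prior 3 collagens (the classical collagen VI chains) and 4 list genes did. Leaving out a replicate number or an array gave 0 to 1 collagens lower, 0 higher and 0 to 4 list genes; 9 to 11 collagens were higher and 11 to 12 lower in both remaining pairs, where fewer pairs must share a sign. The collagen median ranged from -0.17 to 0.15 without the block and from -0.028 to -0.010 with it. Differences that changed sign when 1 array or number was left out ranged from -0.76 to 0.31 for Col10a1, -0.55 to 0.26 for Col11a1, -0.12 to 0.0051 for Col1a1, -0.23 to 0.0039 for Col1a2, -0.29 to 0.51 for Col27a1, -0.12 to 0.33 for Col4a2, -0.042 to 0.0079 for Col5a1, -0.50 to 0.52 for Col5a2, -0.094 to 0.23 for Col5a3, -0.34 to 0.37 for Col6a4, -0.41 to 0.55 for Col6a6, -0.59 to 0.10 for Col8a1 and -0.54 to 0.83 for Col9a3. With replicates 1 and 2 alone and no block, a setting added after the data were seen, Col5a2 was at -0.028 and Col6a4 at -0.051, and no collagen passed. Over the 32 collagens above background on all 6 arrays, likewise added, the median was -0.02, with 7 lower and 5 higher in every pair. Of the genes listed above as changing sign, Col5a2, Col6a4 and Col6a6 alone did so when a replicate number was left out with the block. The others changed sign in fits without the block, where leaving out 1 array makes replicate 3 weigh more in one genotype. The cause of these changes was not tested.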
